A study of Caenorhabditis elegans with 2 samples.

Results

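The genes described here are 59 of the 19973 protein-coding genes on the nuclear chromosomes of Caenorhabditis elegans: those that encode molecular chaperones and their partners outside the HSP70 family. They were taken by name, as all genes named hsp-, dnj-, cct- or pfd- together with daf-21, less hsp-1, hsp-3, hsp-4, hsp-6, hsp-70 and hsp-110. This group was chosen with earlier results of these data known. The annotation lists daf-21 as hsp-90 (WBGene00000915), and it is called hsp-90 here. By family they comprised 29 genes for J-domain proteins, 13 for small heat shock proteins, 8 for subunits of the cytosolic chaperonin CCT, 6 for prefoldin subunits, 2 for HSP90 proteins (hsp-90 and hsp-75) and 1 for the mitochondrial chaperonin, hsp-60. The data are a chromatin immunoprecipitation with sequencing (ChIP-seq) of the transcription factor ETS-5 in whole worms, with 1 group of 2 biological replicates and no second condition.

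All larvae were of strain OP809. The strain carries the transgene wgIs809, a fosmid (a large piece of worm genomic DNA) in which ets-5 ends in TY1, EGFP and 3xFLAG tags. It also has the unc-119 mutation tm4063, with unc-119(+) supplied by the transgene. The worms were in the first larval stage (L1), kept without food after bleaching, and aged 6 hours. The immunoprecipitation used an antibody to green fluorescent protein, per the description, while the antibody label reads ets-5. The tagged protein was therefore made from a transgene, and the chromatin came from whole animals. ETS-5 is best known from a few neurons, among them the gas-sensing BAG cells, so a region's signal could not be assigned to a cell type. No input or untagged sample was analysed here, and the lists do not give read depth.

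Chaperones keep other proteins folded. HSP90 proteins mature clients such as kinases and receptors, and J-domain proteins hand unfolded clients to HSP70 and start its ATP cycle. Prefoldin carries new actin and tubulin chains to CCT, the ring in which these fold. Small heat shock proteins hold unfolding proteins in soluble form without using ATP, and in C. elegans the hsp-16 genes are known for their strong induction by heat through the factor HSF-1. ETS factors read a short DNA word with the core GGAA. The question put to the data was where the chaperone genes stand among all genes in the signal of ETS-5 near their start sites.

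The deposited ranked list for the whole series holds 126002 regions, against 108309 for replicate 1 and 92443 for replicate 2. Of the regions behind the series list, 250 passed the authors' threshold on the irreproducible discovery rate (IDR), a measure of how poorly a region's rank recurs between compared lists. Each gene was given the highest signal among the regions with a summit within 1000 bp of any of its annotated starts. The signal is the authors' value for a region, on a scale that is not stated, so signals were compared within a list only and genes were placed by percentile among all genes, with 100 the highest. A gene with no such region took the lowest place. The value of a replicate is likewise that of its own best region near the gene, which could lie at another place or another start than that of the series. The top 10% of genes in the series list began at a signal of 54.9. Since the lists hold so many regions, a ranked region near a gene is not a binding site in itself.

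In the series list the chaperone genes stood close to the middle of all genes. A ranked region lay near 55 of the 59 in the series list, where 93.3% of all protein-coding genes had one. In replicate 1 there were 54, against 91.6% of all genes, and in replicate 2 there were 52, against 87.4%. The median percentile of the 59 was 51.4 in the series list, with quartiles of 25 and 80.7, 53 in replicate 1 and 63.2 in replicate 2. The median signal of those with a region was 38.8, against 37 over all genes with a region in the series list. In the top 10% of the series list were 9 of the 59 genes, 15.3% against 10% of all genes, and the exact 95% binomial interval of 7.22% to 27% holds the share of all genes. Such intervals cover counting error only, and genes that share a region are not independent. The signals ran from 17.9 to 81.9, and the 9 genes above the boundary were spread from 55.7 upward (plot of the signal of all 59 genes).

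**Figure D1:**
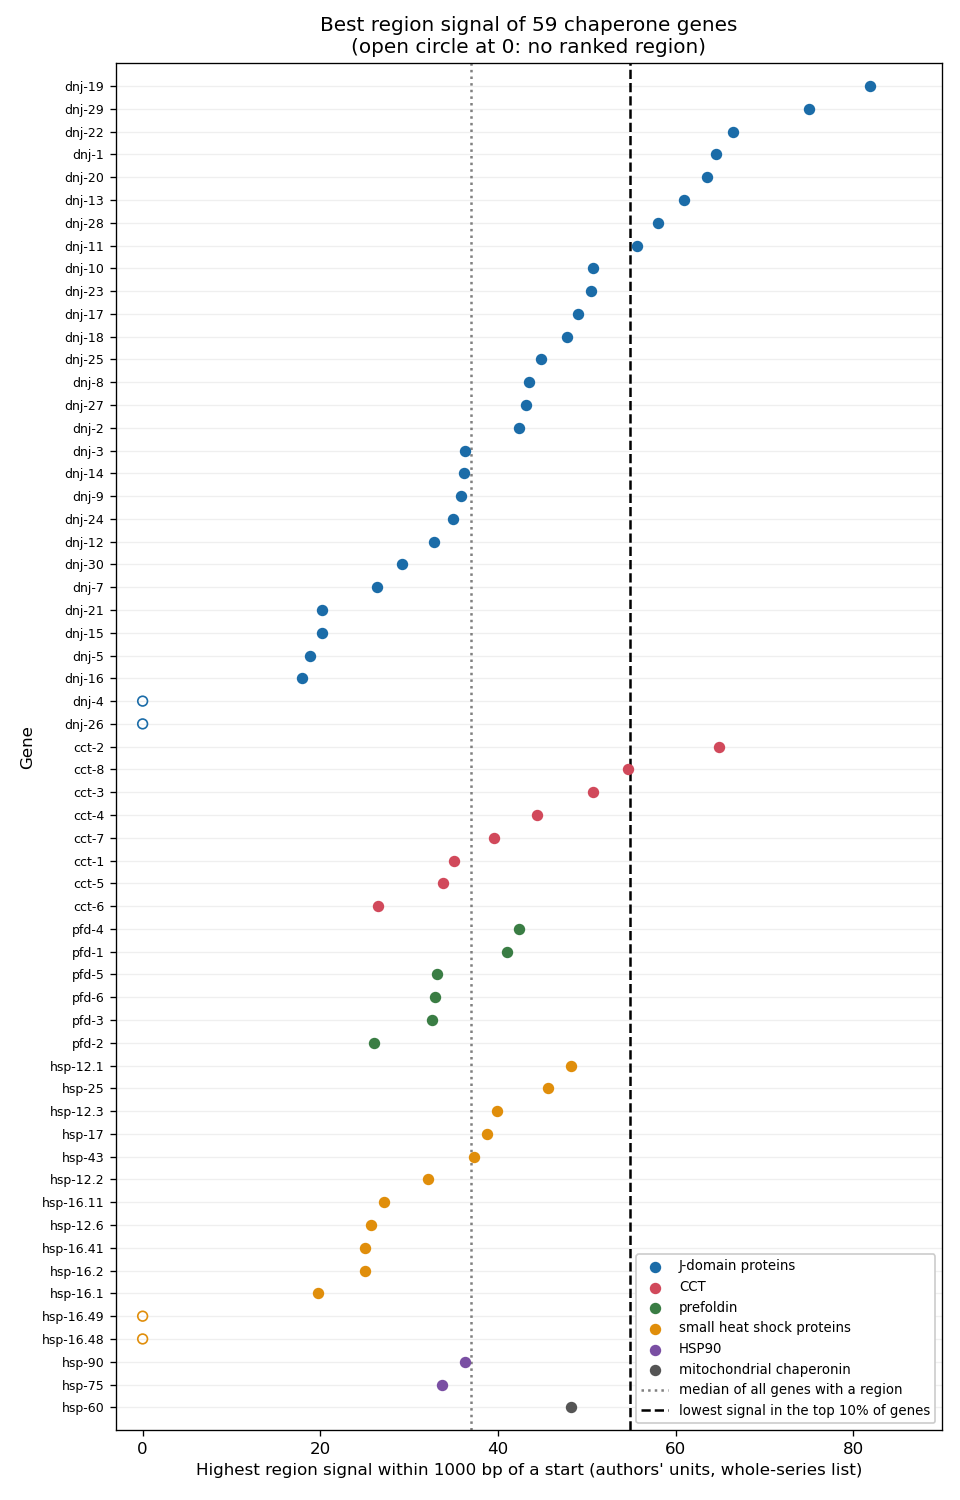
Highest region signal (horizontal axis, authors' units, whole-series ranked list) of each of the 59 genes (vertical axis), coloured by family; open circles at 0 are the 4 genes with no ranked region within 1000 bp of a start. The dotted line is the median of all genes with a region (37) and the dashed line the lowest signal in the top 10% (54.9); 8 of the 9 genes beyond it encode J-domain proteins and the other is cct-2.

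Of these genes, dnj-19 alone was near a region that passed the authors' threshold, where 0.741% of all protein-coding genes were. It was also the only one in the conservative list of 177 regions, which derives from a ranked list comparing the replicates; that ranked list reached 92.2% of all genes and the conservative list 0.506%. None of the 59 was near a region of the threshold lists of the single replicates, which hold 21 and 26 regions and reach 0.0601% and 0.0901% of genes. dnj-19 (WBGene00001037) encodes a J-domain protein of the class that resembles bacterial DnaJ along its whole length. Its region lay at V:5504320-5504629 in ce11, with the summit 382 bp inside the gene, in a coding exon, and 778 bp from the start of nhr-47. The series signal was 81.9, place 218 in the ranked list, with a global IDR of 0.00573. In the replicates' own lists the signal was 46.7 and 41.7, at percentiles 99.4 and 99, so both replicates placed it among the highest genes. The best summits of both replicates lay within 150 bp of that of the series. The 201 bases around the summit (V:5504375-5504575, minus strand, the strand of the gene) are shown because this is the 1 passing region. Capitals mark GGAA and its reverse complement TTCC, which occur 6 times; the longer word CCGGAA does not occur. In this sequence and those that follow, read from the RefSeq copy of the WBcel235 genome (ce11), untranslated exon bases were left out.
dnj-19: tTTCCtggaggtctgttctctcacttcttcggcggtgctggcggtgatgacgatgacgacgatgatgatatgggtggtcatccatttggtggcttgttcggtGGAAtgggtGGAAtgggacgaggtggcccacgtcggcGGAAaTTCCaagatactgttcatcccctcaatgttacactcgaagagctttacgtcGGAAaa

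The other J-domain genes in the top 10% were dnj-29, dnj-22, dnj-1, dnj-20, dnj-13, dnj-28 and dnj-11, and with dnj-19 they made 8 of 29, or 27.6% (12.7% to 47.2%). In replicate 1 the count was 7 of 29, or 24.1% (10.3% to 43.5%), and in replicate 2 it was 5 of 29, or 17.2% (5.85% to 35.8%). The interval holds the 10% of all genes in replicate 2, but not in replicate 1 or the series list. It covers counting error over genes only, so it is no test of the family against all genes. The shares were not tested, several families were looked at, and the members were chosen with earlier results known. With each region given only to the gene with the nearest start, dnj-11, dnj-13 and dnj-20 left the top 10% of the series list. No other gene of the family entered it. The family's median percentile was 70 in the series list, 53 in replicate 1 and 66.1 in replicate 2.

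dnj-22 had the region nearest to a start among these 9 genes. The summit lay 53 bp before the start (V:8462018-8462327), between genes, and 186 bp from the start of natc-1. Its signal was 66.5 in the series, 32.0 in replicate 1 and 30.8 in replicate 2, at percentiles 89.1 and 92.1, so both replicates put it near the boundary. The intergenic bases around the summit (V:8462121-8462273, minus strand, the strand of dnj-22) are shown as the summit closest to its gene among these 9. They hold GGAA once, as TTCC in capitals.
dnj-22: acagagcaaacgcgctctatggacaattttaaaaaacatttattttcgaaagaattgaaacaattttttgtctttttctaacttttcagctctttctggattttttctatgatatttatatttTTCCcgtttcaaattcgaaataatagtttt

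dnj-20, related to an endoplasmic reticulum J-domain protein, is an example of how far the replicates could differ. Its signal was 63.5 in the series list, 46.4 in replicate 1 and 15.4 in replicate 2. The first replicate placed it at percentile 99.3 and the second at 35. The replicate 2 value came from 843 bp inside another start of the gene, and at the series summit that replicate had 13.6. The series summit lay 736 bp before the gene (II:9624757-9625066) in a coding exon of ZK1307.8, whose start is nearer at 275 bp. The sequence (II:9624812-9625012, minus strand, the strand of dnj-20) is shown because it carries CCGGAA, in capitals as TTCCGG, beside the shorter GGAA; the shorter word occurs 5 times, once within the longer.
dnj-20: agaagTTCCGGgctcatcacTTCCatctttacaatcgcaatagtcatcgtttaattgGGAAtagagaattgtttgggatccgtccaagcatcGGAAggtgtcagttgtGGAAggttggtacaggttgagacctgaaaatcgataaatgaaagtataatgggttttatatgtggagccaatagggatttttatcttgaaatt

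For 2 further J-domain genes the summit also lay nearer to another gene. dnj-13, which encodes a cytosolic partner of HSP70 of the DNAJB type, had a signal of 60.9 in the series, 31.4 in replicate 1 and 34.8 in replicate 2, with the series summit 823 bp before its start and 50 bp from that of F54D5.9. The replicate 2 value came from a summit 187 bp before dnj-13, and at the series summit that replicate had 28.9, below the 29.5 at which its top 10% begins. dnj-11, a relative of the ribosome-associated protein zuotin that is known for a part in asymmetric cell division, had 55.7, 41.9 and 20.3, with the series summit 905 bp before its start and 434 bp from that of F38A5.2. The replicate 2 value came from a summit 412 bp inside dnj-11, and at the series summit that replicate had 10.5. The upstream series summits of these genes therefore cannot be assigned to the chaperone gene by position. When each region was given only to the gene with the nearest start, dnj-11, dnj-13 and dnj-20 left the top 10% and cct-8 entered it.

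For another pair the summit lay close to the gene itself. dnj-1 had a signal of 64.6 in the series, 34.5 in replicate 1 and 27.8 in replicate 2, with the summit in a coding exon 194 bp inside the gene (IV:11299075-11299384). dnj-28 had 58.0, 38.5 and 24.8, with the series summit 155 bp before the start (I:2996178-2996487). Its replicate 2 value came from a summit 739 bp inside the gene, and at the series summit that replicate had 20.6. Both were in the top 10% in replicate 1 and below it in replicate 2, at percentiles 86.6 and 77.9. dnj-11, at 55.7, was the gene just inside the boundary and cct-8, at 54.7, the one just outside.

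dnj-29, whose product is the worm relative of Sec63, a helper of protein entry into the endoplasmic reticulum, ranked just behind dnj-19. Its region (I:14112612-14112921, in an intron 341 bp inside the gene) had a series signal of 75, with 39.4 in replicate 1 and 27.4 in replicate 2. Only the first of the replicate values was in the top 10%, the second being at percentile 85.7. The global IDR was 0.0125, and the score of 789 was below the lowest passing score of 830.

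At the other end of the J-domain family stood dnj-16, with a series signal of 17.9, the lowest of any chaperone gene with a region. Its replicate values were 17.4 and 15.3, but the first came from a summit 813 bp before a start. Replicate 1 had no region within 150 bp of the series summit. In the ranked list that compares the replicates, dnj-16 had a signal of 32.9, at percentile 41.5, but from another region. Its summit lay 1622 bp from that of the series, where that list had 17.9. dnj-4 and dnj-26 had no region in the series list. dnj-4 had regions in the lists of both replicates, with signals of 12.8 and 24.6, and dnj-26 had none in either.

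**Figure D2:**
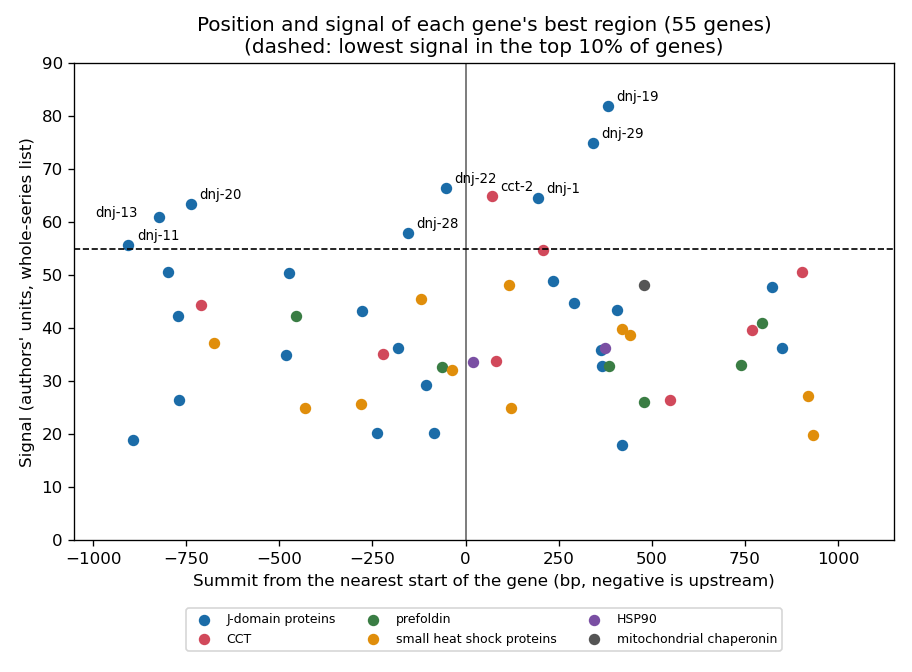
Signal of each gene's best region (vertical axis, authors' units, whole-series list) against the distance of its summit from the nearest annotated start of the gene (horizontal axis, bp, negative is upstream) for the 55 genes with a region. The dashed line is the lowest signal in the top 10% (54.9); summits above it lie on both sides of the start, from 905 bp before (dnj-11) to 382 bp after (dnj-19).

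The CCT genes, whose products form the rings of the cytosolic chaperonin, showed the widest gap between the replicates among the families of 3 or more genes. All 8 had a region in each list. In replicate 2, 4 of 8 (exact interval 15.7% to 84.3%) were in the top 10%, which holds 10% of all genes, and the median percentile was 90.8. In replicate 1, 0 of 8 were (up to 36.9%), and the median percentile was 36.3. The series list held 1 of 8, at a median percentile of 66.9. With 2 replicates this gap could not be set against a spread.

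cct-2 was the CCT gene with the highest series signal, 64.9, with 25.6 in replicate 1 and 32.4 in replicate 2, at percentiles 70.8 and 94.4. Its summit lay 70 bp inside the gene, in a coding exon (II:8927656-8927965), with no other gene's start within 1000 bp and a global IDR of 0.0319.

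cct-8 followed with 54.7 in the series, 31.2 in replicate 1 and 37.4 in replicate 2. Its best summit in replicate 2 lay elsewhere, 940 bp before a start, and at the series summit (IV:1093556-1093865) that replicate had 23.6. cct-3 and cct-5, named after their values were seen, are examples. For cct-3 the signal was 7.61 in replicate 1 and 41.9 in replicate 2, at percentiles 10.3 and 99.1, and no region of replicate 1 lay at the series summit. For cct-5 it was 22.9 in replicate 1 and 38.0 in replicate 2, from summits at 73 bp and 748 bp inside the gene. The subunit gene with the lowest signal was cct-6, with 26.5, 18.1 and 15.0. The genes of this one complex thus ranged over percentiles 24.2 to 96.6 in the series list.

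**Figure D3:**
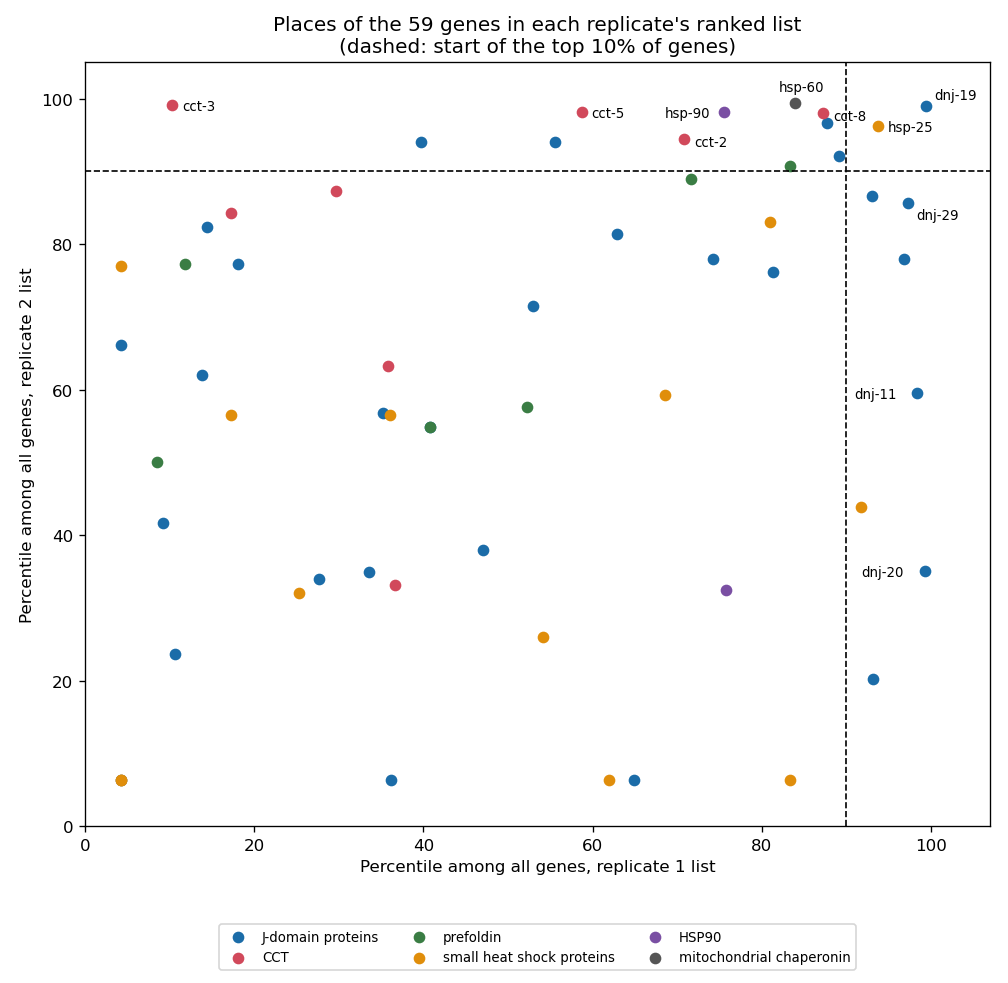
Percentile of each of the 59 genes among all protein-coding genes in the ranked list of replicate 1 (horizontal axis) and of replicate 2 (vertical axis), coloured by family; dashed lines bound the top 10% of each list. dnj-19 and hsp-25 lie in the upper right corner, 4 CCT genes lie above the horizontal line and none right of the vertical one; dnj-2 and pfd-4 share a point, as do dnj-26, hsp-16.48 and hsp-16.49.

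The prefoldin genes gave no member of the top 10% in the series list or in replicate 1, and 1 of 6 in replicate 2, which was pfd-5. The highest series signals were 42.4 at pfd-4 and 41 at pfd-1. In the replicates pfd-4 had 19 and 19.4, and pfd-1 had 21.4 and 20. The pfd-4 region (IV:11314596-11314905) is also the best region of dnj-2 and lies nearer to the start of another gene, at 247 bp. pfd-2 was lowest, with 26.0 in the series, 3.07 in replicate 1 and 18.4 in replicate 2. In the series list the 6 genes ranged over percentiles 23.2 to 68.2, with a median of 41.3.

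In the series list hsp-60 stood at percentile 80.6 and the HSP90 genes hsp-90 and hsp-75 at 51.3 and 43.5. hsp-60, the mitochondrial chaperonin gene used as a reporter of mitochondrial stress, had a signal of 48.2 in the series, 29.7 in replicate 1 and 43.7 in replicate 2. The last was the highest of any chaperone gene in that list, at percentile 99.4, but it came from a summit 632 bp before a start. No region of replicate 2 lay at the series summit, which is in an intron 480 bp inside the gene. hsp-90, the cytosolic HSP90 gene, had 36.3, 26.9 and 37.6. Its replicate 2 summit lay 355 bp before a start, at percentile 98.1, and the series summit lay 374 bp inside, where that replicate had 13.6. hsp-75, for the mitochondrial HSP90, had 33.7, 27.0 and 14.8. Its series summit lay 19 bp inside the gene, that of replicate 1 lay 111 bp before the start and that of replicate 2 lay 58 bp inside. For hsp-60 and hsp-90 the higher replicate 2 value was thus not at the place of the series region.

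Of the 13 small heat shock protein genes, 0 were in the top 10% of the series list (exact interval up to 24.7%), 2 in replicate 1 and 1 in replicate 2. Their median percentile was 25.7 in the series list, 54.2 in replicate 1 and 43.8 in replicate 2. Without the 4 copies in the inverted repeat described below, a choice made after seeing the data, the series median of the remaining 9 was 54.2. hsp-12.1, of a group with short flanks around the shared domain, led them with 48.2, and had 33.6 in replicate 1 and 17.1 in replicate 2. hsp-25 was next, with 45.6, 35.0 and 34.3, at percentiles 93.7 and 96.3 in the replicates. It was the only chaperone gene besides dnj-19 in the top 10% of both, but the best summits lay 120 bp before a start in replicate 1 and 897 bp before another in replicate 2, which are 1148 bp apart. The sequence around the series summit (X:6037721-6037921, minus strand, the strand of the gene) is shown for its CCGGAA, in capitals as TTCCGG, with 2 copies of GGAA in all.
hsp-25: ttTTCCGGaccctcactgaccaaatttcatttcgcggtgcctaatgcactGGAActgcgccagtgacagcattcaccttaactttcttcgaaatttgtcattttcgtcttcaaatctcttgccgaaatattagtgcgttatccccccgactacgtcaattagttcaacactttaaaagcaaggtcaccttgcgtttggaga

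The 6 hsp-16 genes, the heat-inducible group, were low or without a region in the series list and more varied in the replicates. hsp-16.2 and hsp-16.41 start back to back on chromosome V and share their best region (V:1804593-1804902), with a series signal of 25. In replicate 1 their values were 18 and 12.4, from other summits, and in replicate 2 both had 19.7, at percentile 56.5. hsp-16.11 had 27.2 in the series, no region in replicate 1 and 24.5 in replicate 2, at percentile 77. hsp-16.1 had 19.8 in the series, 23.6 in replicate 1, at percentile 62, and no region in replicate 2. hsp-16.48 and hsp-16.49 had no region in any ranked list. The 4 genes with a series region thus rest on 3 distinct regions, none above percentile 25.7 in that list.

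These last 4 genes lie in an inverted repeat, so their values need care. The arms at V:9086861-9088741 and V:9089156-9091036 are identical over 1881 bp, each holding a back-to-back pair. Names were assigned by the coordinates of RefSeq, since the Ensembl annotation gives both copies the same name. Of the 50-base words in the 1000 bp on each side of the start, 94.4% occur elsewhere in the genome for hsp-16.11, 93.9% for hsp-16.1 and 80% for hsp-16.48 and hsp-16.49. The regions of hsp-16.1 and hsp-16.11 had their summits 932 bp and 920 bp from the starts, at the outer ends of the arms, and 0 ranked regions of the series had a summit between them. How reads matching several places were treated is not given, and the part of the repeat in the missing regions was not tested.

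**Figure D4:**
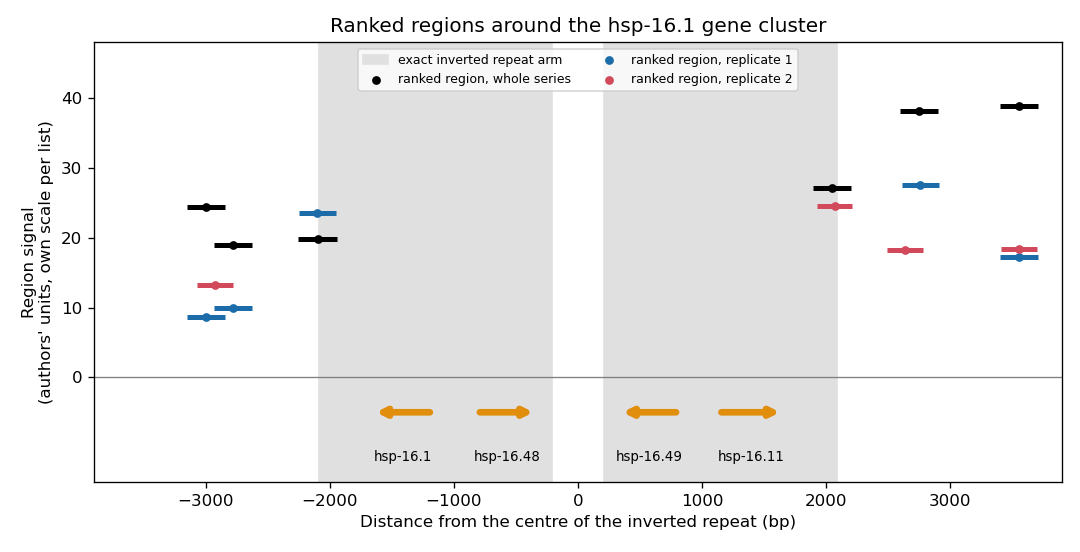
Signal of the ranked regions (vertical axis, authors' units, own scale in each list; bars show the extent and points the summit) against distance from the centre of the inverted repeat (horizontal axis, bp). Grey marks the 2 identical arms of 1881 bp and arrows the 4 genes; no region of the 3 lists has its summit over the genes, and the nearest summits in the series list lie at the outer ends of the arms, with signals of 19.8 and 27.2.

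The heat shock genes carry a known element, and its place was set beside the regions. The element was searched on both strands as GAANNTTC and in a longer form, in which any 2 bases and a further GAA follow it. The search covered the 250 bases before and 50 after the outermost start of each gene, and other starts were not searched. The longer form was in 8 of the 59 promoters, 13.6%, against 1.97% of all promoters. The 8 were those of all 6 hsp-16 genes, of hsp-90 and of dnj-12, a further DnaJ-like gene that was named after its value was seen. The hsp-16 genes start back to back in pairs, some of them in the identical arms of the inverted repeat, so the 8 promoters are not independent. The shorter form was in 24 of 59, or 40.7%, against 18.5%. None of these 8 genes was in the top 10% of the series list or of replicate 1, and 1, hsp-90, was in that of replicate 2. Each top 10% holds 10% of all genes, so such counts among 8 genes do not set them apart from other genes. Of the 8, hsp-16.1, hsp-16.11, hsp-16.48 and hsp-16.49 lie in the inverted repeat, where an absent region does not show absent signal. Sequences of 3 of these promoters are shown because they carry the element; capitals mark either form on either strand. The first lies between hsp-16.2 and hsp-16.41 (V:1804958-1805177), the next is the middle of the stretch between hsp-16.1 and hsp-16.48 (V:9087807-9088106), and the last lies before hsp-90 (V:14684668-14684917), all on the plus strand. The first pair of stretches were identical at 189 of 217 aligned bases, 87.1%.
hsp-16.2/hsp-16.41: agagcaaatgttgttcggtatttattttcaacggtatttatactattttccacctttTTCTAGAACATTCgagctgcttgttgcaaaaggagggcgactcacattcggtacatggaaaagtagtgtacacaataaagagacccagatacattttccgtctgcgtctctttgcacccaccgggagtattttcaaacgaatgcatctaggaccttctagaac
hsp-16.1/hsp-16.48: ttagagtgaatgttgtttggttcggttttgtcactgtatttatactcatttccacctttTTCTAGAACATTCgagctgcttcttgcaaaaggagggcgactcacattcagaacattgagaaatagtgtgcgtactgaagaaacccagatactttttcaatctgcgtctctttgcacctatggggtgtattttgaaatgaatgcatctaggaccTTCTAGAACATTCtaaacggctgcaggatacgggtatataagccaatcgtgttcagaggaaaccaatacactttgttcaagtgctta
hsp-90: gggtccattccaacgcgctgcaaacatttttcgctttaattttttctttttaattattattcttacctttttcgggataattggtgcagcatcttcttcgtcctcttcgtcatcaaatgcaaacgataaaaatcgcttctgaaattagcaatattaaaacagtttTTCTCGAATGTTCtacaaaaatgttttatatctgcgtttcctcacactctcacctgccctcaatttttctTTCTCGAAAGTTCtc

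Within 100 bp of the best summits, the heat shock words and CCGGAA were about as frequent as in the best regions of all genes, and GGAA was less frequent. GAANNTTC was in the best region of 8 of the 55 genes, 14.5%, against 13% over all genes with a region. The longer form was in that of 1, against 1.17%. A region shared between genes counts once for each. The ETS word CCGGAA was in 6 of 55, 10.9% against 9.26%. Those 6 belonged to dnj-20, dnj-29, hsp-25, hsp-90, cct-5 and dnj-9, of which the last was named after its values were seen, and 2 of the 6 were in the top 10%. The short core GGAA was in 42 of 55, 76.4% against 88.3%. A match is a description of the letters, not of binding. GC content over the same span was 39.1% ± 6.62 (SD, n = 55 genes), against 39.5% ± 6.95 over all genes with a region.

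The best regions of the chaperone genes lay on both sides of the start, as those of all genes did. Of the 55 summits, 25 were upstream of the start, 45.5% against 43.8%, while 14 were within 200 bp of it, 25.5% against 22.6%, and 37 within 500 bp, 67.3% against 53%. These shares were not tested. The median distance was 407 bp, against 471 bp. By annotation, 25 summits lay in coding exons, 18 between genes and 12 in introns. The 55 genes had 53 distinct best regions, and for 11 of them, 3 in the top 10%, another gene's start was nearer to the summit.

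The replicates ordered the chaperone genes about as loosely as they ordered all genes. Over the 50 genes with a region in both replicates' lists, Spearman's rho of the best signals was 0.30, against 0.28 over 16465 genes, given as a description since the genes share their libraries. In at least 1 replicate's top 10% were 20 of the 59, where 3453 of all 19973 genes were. In both were 2 of the 59, dnj-19 and hsp-25, where 2.71% of all genes were in both. These shares were not tested. In replicate 1 the 9 genes were 15.3% of the 59, and in replicate 2 the 13 genes were 22% (12.3% to 34.7%), against 10% of all genes in each. Of the 9 genes in the top 10% of the series list, 6 were so placed in replicate 1 and 4 in replicate 2. The replicates' own best summits lay within 150 bp of the series summit for 41 of 55 genes in replicate 1, for 27 in replicate 2 and for 14 in both. For the 9 highest genes, which were picked by their series signal, these counts were 9, 5 and 5. The same counts were not made over all genes, so they do not show whether the chaperone genes differ from others.

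At a global IDR of at most 0.05, a looser bound than the authors', 7 of the 59 genes had a region, against 5.14% of all genes. These were dnj-19, dnj-29, cct-2, dnj-1, dnj-20, dnj-13 and dnj-28, all of them already in the top 10% by signal.

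Other genes of protein quality control were set beside the chaperones. Of 8 HSP70 genes, 3 were in the top 10% of the series list: F44E5.4 and F44E5.5, which share a region with a signal of 151 that passed the threshold, and hsp-110 with 65.8. Of 23 co-chaperone and stress-regulator genes, 7 were. Among these sip-1, a further small heat shock protein gene whose name kept it out of the 59, had 87.3 in the series, 41.7 in replicate 1 and 40.7 in replicate 2. crt-1, for the endoplasmic reticulum chaperone calreticulin, had 86.0, 54.2 and 34.9. Both were near regions of the main and the conservative list, and both signals were above that of dnj-19. The others were enpl-1, for the HSP90 of the endoplasmic reticulum, with 61.3, hsf-1, for the heat shock factor, with 61.2, xbp-1, for a factor of the endoplasmic reticulum stress response, with 60.6, atfs-1, for a factor of the mitochondrial one, with 59.5, and unc-23, for a BAG-domain co-chaperone, with 58.5. The replicates differed for hsf-1, with 18.3 and 39.5, and for atfs-1, which had no region in replicate 1 and 38.3 in replicate 2.

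As a scale for these shares, 18.2% of 33 proteasome genes and 38.5% of 78 cytosolic ribosomal protein genes were in the top 10% of the series list. The share was 30.4% for the 23 co-chaperone and regulator genes and 37.5% for the 8 HSP70 genes. The chaperone share of 15.3% lay nearest that of the proteasome and below those of the other groups. The co-chaperone and regulator group also holds chaperone genes that the choice by name left out. Among them sip-1, crt-1 and enpl-1 were in the top 10% of the series list. The gap between 15.3% and 30.4% thus depends on that choice and does not compare chaperones with co-chaperones as classes. The intervals of the ribosomal protein genes (27.7% to 50.2%) and of the co-chaperones and regulators (13.2% to 52.9%) do not meet the 10% of all genes. Those of the proteasome (6.98% to 35.5%) and HSP70 genes (8.52% to 75.5%) do. In each replicate's own list the co-chaperone interval also meets it. The differences between groups were not tested, since the groups were chosen with results known.

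**Figure D5:**
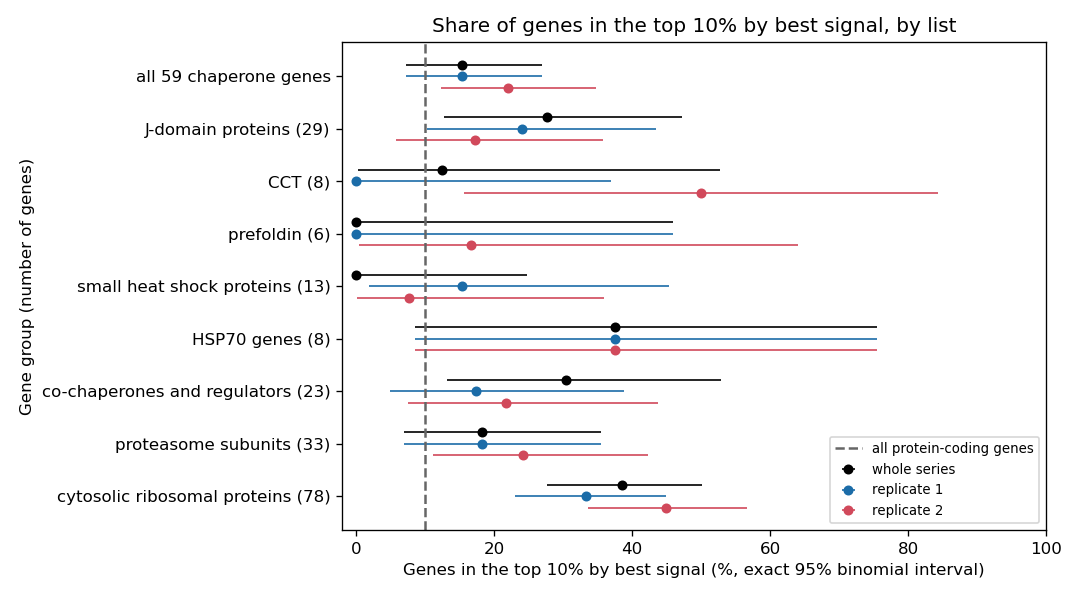
Share of genes in the top 10% (horizontal axis, percent, points with exact 95% binomial intervals) for the 59 chaperone genes, 4 of their families and 4 comparison groups (vertical axis, number of genes in brackets), in the whole-series list and in each replicate's list. The dashed line is the 10% of all protein-coding genes; the interval of the 59 meets it in the series list and in replicate 1, and the CCT genes go from 0% in replicate 1 to 50% in replicate 2.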

How the data were processed

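ETS-5 ChIP-seq was made from whole L1 larvae in 2 biological replicates with 1 technical replicate each, fragmented by sonication, per the labels. The deposited data are 4 ranked region lists and 4 lists that pass an IDR threshold, on ce11, per the labels. Aligner and peak caller: not given in the sources used here. As deposited, the signal is the authors' value per region on an unstated scale. The deposited score equals the −log2 of the global IDR multiplied by 125 and limited to 1000, which held within 1 for 100% of the series regions. The deposited ranked lists give the −log10 of the global IDR. The depth of reads is unknown, so no precision from counting reads can be given. Of the ranked regions of the series, 50 reach the lowest passing score of 830 but are absent from the main list, and 0 of these is a chaperone gene's best region.

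Starts of protein-coding genes came from Ensembl release 115 (WBcel235), with hsp-16 names and sequences from RefSeq. Coordinates are 1-based. Python 3.11.15, pandas 2.3.3, NumPy 2.4.6 and SciPy 1.17.1 were used, and the counting was tested on simulated regions. A list is described by counts and medians beside all genes, without a test, since there is 1 group. The members and lists were chosen with earlier results of these data known. Genes named are those near a passing region or in the top 10% of the series list, the 2 highest and the lowest of each family of 3 or more, all hsp-16 genes, hsp-90, hsp-60, hsp-75 and genes without a region; further names are marked as chosen after their values were seen. Also so chosen are the remaining genes listed for replicate 2, for words and for the comparison groups. Alternatives were other windows, start rules, lists, boundaries and words.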

Additional observations from a re-analysis of the deposited data

How the results depend on the processing

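The count of chaperone genes with a ranked region stayed between 52 and 57 over the alternatives run, and the count in the top 10% between 7 and 13. The top 20% of genes held 16 of the 59, and the top 5% held 6. The median percentile, 51.4 in the series list, was 64.2 with a window of 500 bp and 58.7 without the 4 hsp-16 copies in the inverted repeat. Leaving out a replicate, by using the other's list, gave medians of 53 (without replicate 2) to 63.2 (without replicate 1); the cause was not tested. The count near a passing region was 7 at a global IDR of at most 0.05, and 0 without either replicate, since the lists of single replicates hold 21 and 26 regions against 250. CCGGAA was in the best regions of 2 genes within 50 bp of the summit and of 11 within 200 bp, and GGAA in those of 42. GAANNTTC was in those of 3 genes within 50 bp and of 16 within 200 bp, and its longer form in that of 1 within 100 bp. These word counts follow the length searched and the letters. Of 527 recomputed places of single genes, 141 moved by more than the gene's own SD between the replicates' percentiles and 386 did not. That SD is wide where the replicates differ, so dnj-20 counts as unmoved at percentile 60 with nearest starts only, against 96. Leaving out the hsp-16 copies could not move the other genes, and the single replicates' places themselves set the SD. These counts therefore do not measure how stable the places are. Without replicate 1, 4 of the 9 genes in the top 10% kept that place, and without replicate 2, 6 did. No paired analysis was possible because the series has 1 group. The lists give no read depth, so no limit of detection can be stated, and an absent region does not show absent signal.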
